A study of Homo sapiens with 44 samples.

Results

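RNA of 10 genes was followed through the differentiation of human embryonic stem cells towards cardiovascular progenitors. Of these, 5 mark the epicardium (WT1, TCF21, TBX18, BNC1 and UPK3B) and 5 mark fibroblasts or the matrix around them (POSTN, DCN, LUM, DDR2 and MGP). The 10 genes were fixed by symbol, matched to Ensembl identifiers through GENCODE release 29, and are 10 of the 60499 gene identifiers in the deposited count table. All 10 passed the filter on low counts that left 22955 genes for testing.

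The cells were of the established embryonic line H1, and the 44 libraries each came from 1 culture well. Undifferentiated cells on the laminin LN-521 form the pluripotent group (3 wells). Cells on LN-521 together with LN-221 form the groups of days 0, 1, 3, 14, 20, 30 and 90 (3 wells each) and of days 5, 7, 9 and 11 (5 wells each). Every well of day 1 and later had received CHIR99021, an inhibitor of the kinase GSK3, at day 0, and wells sampled after day 3 also IWP2, an inhibitor of Wnt production, at day 3. Day 0 wells were in Nutristem, the wells of days 1 to 9 in RPMI with B27 lacking insulin (named B21 in the series text), and the wells from day 11 on in RPMI with CTS-grade B-27. Day and medium therefore cannot be told apart between days 0 and 1 and between days 9 and 11, nor can laminin and day 0 between the first 2 groups. The series text gives 3 wells for day 11 where the labels give 5, and all 5 were used. No label ties a well to a separate differentiation run, so p values measure the spread between wells, which may be technical. That spread was estimated over all groups together, not from the groups compared alone. A comparison of tight groups thus carries spread from wider groups, and the reverse. Wells are named below by the replicate number in their label.

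The epicardium is the mesothelial sheet over the heart. Some of its cells lose their epithelial form, enter the heart wall and give rise to cardiac fibroblasts and to mural cells of the vessels. WT1, TCF21, TBX18 and BNC1 are transcription factors of this sheet and its progenitors, and UPK3B is a surface protein of mature mesothelium. Fibroblasts build the matrix: decorin (DCN) and lumican (LUM) are small leucine-rich proteoglycans that bind collagen fibrils, periostin (POSTN) is a matricellular protein, DDR2 is a receptor kinase that binds fibrillar collagen, and matrix Gla protein (MGP) is an inhibitor of calcification. None of these genes is restricted to the heart.

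RefSeq (GRCh38.p14) promoters matched 7 of the 10 genes, with 13 start sites in all. The 250 bases before 4 of these starts are printed as examples of base composition and motifs in genes that rose between days 1 and 9. DCN, LUM and MGP had no entry. Capitals mark a TATA box (TATAAA), an AP-1 motif (TGANTCA) or a GC box (GGGCGG), searched on both strands. Each run ends at the base before the start and is given 5′ to 3′ on the strand of the gene.
WT1, chr11:32435540-32435789, minus strand: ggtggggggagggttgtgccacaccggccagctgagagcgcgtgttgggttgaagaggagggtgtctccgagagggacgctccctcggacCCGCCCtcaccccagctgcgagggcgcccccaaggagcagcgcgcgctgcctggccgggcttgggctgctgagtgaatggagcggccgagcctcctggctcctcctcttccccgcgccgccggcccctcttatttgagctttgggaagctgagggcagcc
TBX18, chr6:84764599-84764848, minus strand: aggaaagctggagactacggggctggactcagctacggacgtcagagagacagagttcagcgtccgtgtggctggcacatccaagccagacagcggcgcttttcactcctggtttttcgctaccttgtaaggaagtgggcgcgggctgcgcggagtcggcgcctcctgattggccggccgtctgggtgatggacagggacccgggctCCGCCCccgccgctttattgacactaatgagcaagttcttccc
BNC1, chr15:83284665-83284914, minus strand: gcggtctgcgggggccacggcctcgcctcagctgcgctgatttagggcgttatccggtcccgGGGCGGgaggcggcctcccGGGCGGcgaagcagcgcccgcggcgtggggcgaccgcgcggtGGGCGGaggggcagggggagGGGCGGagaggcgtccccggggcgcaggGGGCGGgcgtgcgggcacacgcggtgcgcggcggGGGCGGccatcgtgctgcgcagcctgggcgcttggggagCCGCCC
POSTN, chr13:37598769-37599018, minus strand: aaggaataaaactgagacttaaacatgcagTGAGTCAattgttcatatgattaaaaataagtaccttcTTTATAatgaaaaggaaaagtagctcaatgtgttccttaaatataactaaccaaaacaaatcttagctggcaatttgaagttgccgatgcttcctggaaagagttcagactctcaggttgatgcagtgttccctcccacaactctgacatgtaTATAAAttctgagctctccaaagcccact
The BNC1 stretch held 7 GC boxes and was 81.6% G and C. WT1 and TBX18 had 1 GC box each, at 160 and 43 bases before the start, and 70.4% and 61.6% G and C. The POSTN stretch was 36.4% G and C against a median of 58% over all promoters, and held 2 TATA boxes, of which 1 began 29 bases before the start, and 1 AP-1 motif. Over all 35116 RefSeq promoters cut to the same 250 bases, 10.7% held TATAAA, 6.57% held TGANTCA and 42.6% held GGGCGG. Starts not printed differed from these. Another WT1 start was 46.8% G and C, with an AP-1 motif and no GC box, and the other BNC1 start was 72.4% with 1 GC box. TCF21 was 52.8% with 1 GC box, and the DDR2 starts were 40% to 44.4% G and C. A match describes letters only.

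Total estimated counts ran from 6937136 to 33498022 per library, and 3 libraries, 1 each of days 14, 20 and 30, were under 12000000. RNA integrity scores ran from 7.4 to 10. A level is given as CPM, counts scaled to a common library total after TMM normalization, and 3 counts, taken as the least a library can show, correspond to 0.0919 CPM in the deepest library. The summed CPM of 4 pluripotency markers lay between 3120 and 3256 in the pluripotent wells and between 3.04 and 7.64 at day 90. The summed CPM of 6 cardiomyocyte markers lay between 31.9 and 62.2 and between 13159 and 19409 in the same groups. In such bulk RNA, fewer cells of a type and less RNA per cell cannot be told apart.

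TCF21 and BNC1 rose by day 3, WT1, TBX18, LUM and DDR2 by day 5, POSTN and DCN by day 9 and MGP after day 9, while UPK3B fell by day 3 and rose again after day 9. Between day 3 and day 0, 3 of the 10 genes were called, meaning a Benjamini-Hochberg adjusted p under 0.05 in edgeR's quasi-likelihood test and a log2 fold change of at least 1 in either direction. That rule called 16.6% of the 22955 genes tested, 7.81% as higher and 8.76% as lower. TCF21 and BNC1 rose and UPK3B fell. Between day 9 and day 3, 7 of 10 rose and 0 fell, beside 21.2% of all genes called, 12.3% as higher and 8.88% as lower. Between day 9 and day 0, 9 of 10 were called, 8 higher and UPK3B lower, beside 31.7% of all genes (17.1% higher and 14.6% lower). MGP was the gene not called there, at a log2 fold change of 1.07 ± 1.45 (SE).

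After day 9 fewer of the genes were called, and more of the calls rested on a single well. At day 20 against day 9, 3 of 10 were higher (TBX18, UPK3B and MGP), beside 14.5% of all genes (9.01% higher and 5.49% lower). None of the 10 had well ranges apart from those of day 9, where 22.3% of all genes did. Without well 1 of day 20, 0 of the 10 were called. At day 30 against day 9, 3 were higher (TBX18, UPK3B and MGP) and BNC1 was lower, beside 18.9% of all genes (9.69% higher and 9.25% lower), and 2 were called without well 1 of day 30. At day 90 against day 30 only UPK3B was called, as higher, beside 5.09% of all genes (2.65% higher and 2.44% lower). At day 90 against day 9, 5 of 10 were higher (TBX18, UPK3B, POSTN, DCN and MGP), beside 23.9% of all genes (11.9% higher and 12% lower). Each of the 32 calls in these 7 comparisons had the same direction within every sequencing lane that held both groups. Only 1 or 2 lanes did so per comparison, and their wells are among those that made the calls, so this is no separate support. Genes not called could behave likewise: at day 20 against day 9 LUM and DDR2 were higher in 2 of 2 lanes, at log2 differences of 0.32 and -0.14 over all libraries.

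**Figure D1:**
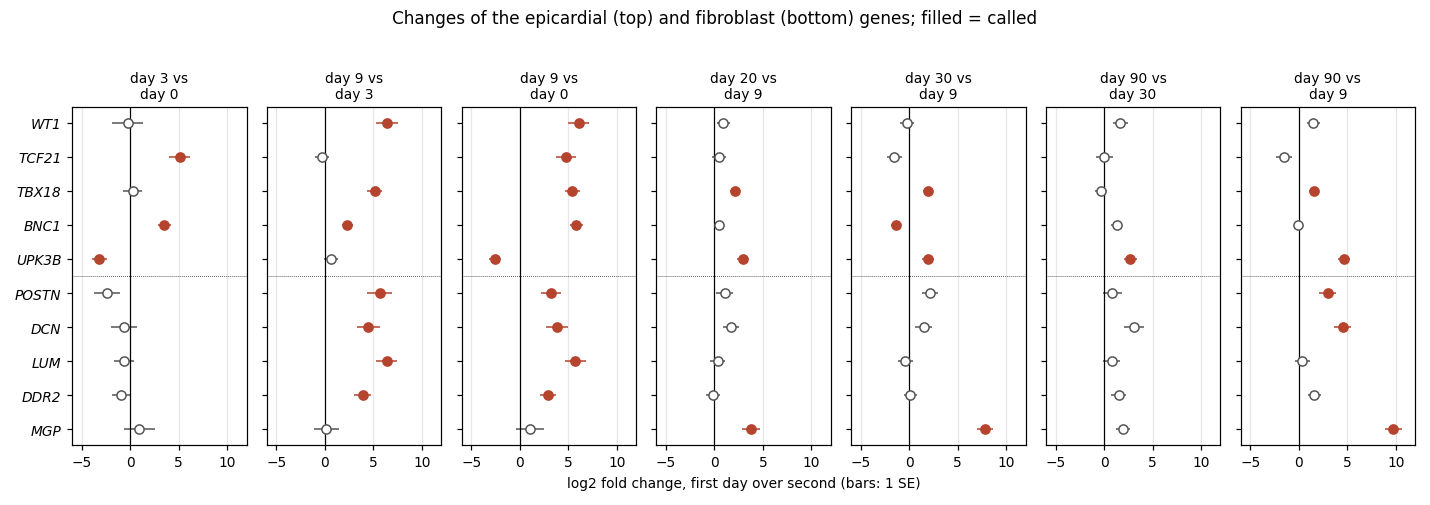
Log2 fold changes of the 5 epicardial genes (above the dotted line) and the 5 fibroblast genes (below it) in the 7 comparisons, with bars of 1 SE. Filled points were called and open points were not. Day 9 against day 0 holds 9 filled points, and day 90 against day 30 holds 1.

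WT1 lies at chr11:32387775-32435630 on the minus strand of GRCh38, and its protein is a zinc-finger transcription factor needed for epicardium and kidney. It was between 0.0333 and 0.418 CPM in all 12 wells up to day 3. In day 5 wells 1 to 5 it stood at 2.86, 11.8, 16.8, 2.13 and 2.53 CPM, each above every earlier well. The step from day 3 to day 5 was a log2 fold change of 6.08 ± 1.14 (SE, adjusted p = 0.000147), measured against 1 to 5 counts per well at day 3.

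From day 5 on WT1 showed no further called step. Its group means lay between 7.23 CPM at day 5 and 24.8 ± 12.8 CPM (SD, n = 3) at day 90. At day 14 wells 2, 3 and 6 gave 16.1, 17.3 and 0.936 CPM. At day 20 wells 1, 2 and 3 gave 30.9, 18.6 and 0.730 CPM. Well 6 of day 14 and well 3 of day 20 thus lay below every well of days 5 to 11 while the other wells of those days lay among or above them. At day 90 wells 2, 4 and 5 gave 35.3, 10.6 and 28.6 CPM. The overlapping gene WT1-AS was at 0 to 0.257 CPM up to day 3 and reached 3.43 CPM in the highest day 5 well and 12.4 CPM at day 90, and whether counting separated the strands is not stated. Kidney progenitors also express WT1: the summed CPM of 5 kidney progenitor markers was 3.47 to 14.8 from day 5 to day 30 and 69.9, 11.6 and 28.3 in day 90 wells 2, 4 and 5, of which OSR1 made up to 69.1 CPM, while PAX2 and PAX8 were at most 0.314 and 0.179 CPM at day 90. Their part in the WT1 level was not tested.

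TBX18 (chr6:84687351-84764519, minus strand), a T-box factor of the epicardium and sinus horn, rose in 2 called steps. Up to day 3 it lay between 0.0729 and 0.484 CPM. In day 5 wells 1 to 5 it was 7.43, 7.78, 3.98, 5.17 and 7.36 CPM, a log2 fold change of 4.09 ± 0.76 (SE, adjusted p = 0.000137) over day 3. At day 9 wells 1, 2, 3, 4 and 10 gave 18.8, 25.0, 8.34, 8.07 and 5.56 CPM. At day 11 wells 1, 2, 5, 6 and 7 gave 45.4, 50.6, 45.9, 46.5 and 79.3 CPM.

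All 5 wells of day 11 thus lay above all 5 of day 9, and the TBX18 difference was 2.02 ± 0.48 on the log2 scale (SE, adjusted p = 0.0121). It was the 1 call among the 10 genes in that step, in which 1.63% of all genes were called. Later wells spread widely: 101, 58.5 and 12.1 CPM at day 20 (wells 1, 2 and 3), 98.9, 21.6 and 25.8 at day 30 (wells 1, 3 and 10) and 30.1, 67.4 and 21.0 at day 90 (wells 2, 4 and 5). The call at day 90 against day 9 (1.58 ± 0.52, adjusted p = 0.0150) was lost without well 4 of day 90, at 0.96 and an adjusted p of 0.207. Without well 1 of day 30 the TBX18 difference between days 30 and 9 was 0.84 and no longer called (adjusted p = 0.258).

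TCF21 (chr6:133889138-133895553, plus strand) encodes a basic helix-loop-helix factor that epicardial cells need to become cardiac fibroblasts. With BNC1 it was the earliest of the 10 genes to rise. Day 1 wells 1, 2 and 3 gave 0.135, 0.0321 and 0 CPM. Day 3 wells gave 8.94, 4.54 and 4.19 CPM, a log2 fold change of 6.64 ± 1.19 (SE, adjusted p = 4.12e-05) over day 1. This was the largest single step among the 10 genes, but it is measured against at most 4 counts per well.

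Over days 5 to 11 TCF21 lay between 1.497 and 11.8 CPM in all 20 wells. At day 14 wells 2, 3 and 6 gave 11.4, 13.1 and 0.499 CPM, and at day 20 wells 1, 2 and 3 gave 12.97, 6.16 and 0.402 CPM. The low wells are the ones that were low in WT1. At day 30 wells 1, 3 and 10 gave 2.16, 0.741 and 1.95 CPM and at day 90 wells 2, 4 and 5 gave 2.82, 0.278 and 1.68 CPM. All 6 of these wells lay below the lowest day 7 well (2.86 CPM), but so did wells 3, 4 and 10 of day 9 (1.93, 1.59 and 1.497 CPM). Wells 1 and 2 of day 9 gave 6.56 and 11.8 CPM. Neither day 30 nor day 90 differed from day 9 by the test (log2 differences of -1.54 ± 0.79 and -1.52 ± 0.79, adjusted p = 0.135 and 0.130). Within the lanes that held both groups, day 30 was higher than day 9 in 2 of 2 and day 90 was lower in 2 of 2. The antisense gene TARID, which overlaps TCF21, was at most 2.39 CPM in any well.

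BNC1 (chr15:83255903-83284714, minus strand), a zinc-finger factor of mesothelial and other epithelia, had the highest mean TPM of the epicardial genes at days 5, 7 and 9 (6.68, 4.21 and 3.33), TPM being the deposited level per transcript length. It rose from 0.472, 0.161 and 0.374 CPM in day 1 wells 1, 2 and 3 to 9.34, 5.66 and 3.77 CPM at day 3. In day 5 wells 1 to 5 it was 48.4, 53.7, 61.3, 47.3 and 38.6 CPM, all above the 3 wells of day 3. Both steps were called, at log2 fold changes of 4.20 ± 0.72 (adjusted p = 1.83e-05) and 3.00 ± 0.56 (SE, adjusted p = 0.000138).

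The BNC1 wells of day 5 were close together, with a mean of 49.9 ± 8.37 CPM (SD, n = 5), and no later group mean was higher. At day 20 wells 1, 2 and 3 gave 79.6, 35.4 and 11.0 CPM. At day 30 wells 1, 3 and 10 gave 16.6, 15.4 and 3.90 CPM, all below the lowest day 9 well (18.3 CPM), and the log2 difference from day 9 was -1.36 ± 0.51 (adjusted p = 0.0386). That call was lost when any of 5 single wells was left out (adjusted p of 0.0513 to 0.191). At day 90 wells 2, 4 and 5 gave 65.0, 19.9 and 4.71 CPM, a spread that overlaps both day 9 and day 30.

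UPK3B (chr7:76510428-76516521, plus strand), a uroplakin on the surface of mesothelial cells, was the 1 gene of the 10 that was called as lower in the early days. Pluripotent wells 1, 2 and 3 gave 3.74, 3.71 and 3.31 CPM. Day 0 wells gave 2.25, 2.56 and 1.86 CPM, and day 3 wells 0.199, 0.149 and 0.377 CPM. The log2 difference between days 3 and 0 was -3.18 ± 0.75 (SE, adjusted p = 0.00146), and the wells did not overlap. Day 3 wells 1, 2 and 3 held 5, 4 and 10 counts.

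From day 5 to day 14 UPK3B ran between 0.0393 and 1.66 CPM, with 1 to 24 counts per well at day 9. At day 90 wells 2, 4 and 5 gave 21.2, 4.86 and 3.03 CPM, against 2.52, 1.11 and 0.781 CPM in day 30 wells 1, 3 and 10. The rise from day 30 to day 90 was 2.70 ± 0.68 on the log2 scale (SE, adjusted p = 0.00986) with wells apart. It was lost without well 2 of day 90, at 1.38 and an adjusted p of 0.240, and without well 3 of day 30 (2.52, adjusted p = 0.0627). Estimated counts of UPK3B were not whole in 8 of 44 libraries, as happens where reads are shared between genes, while those of the other 9 genes were whole in all 44.

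**Figure D2:**
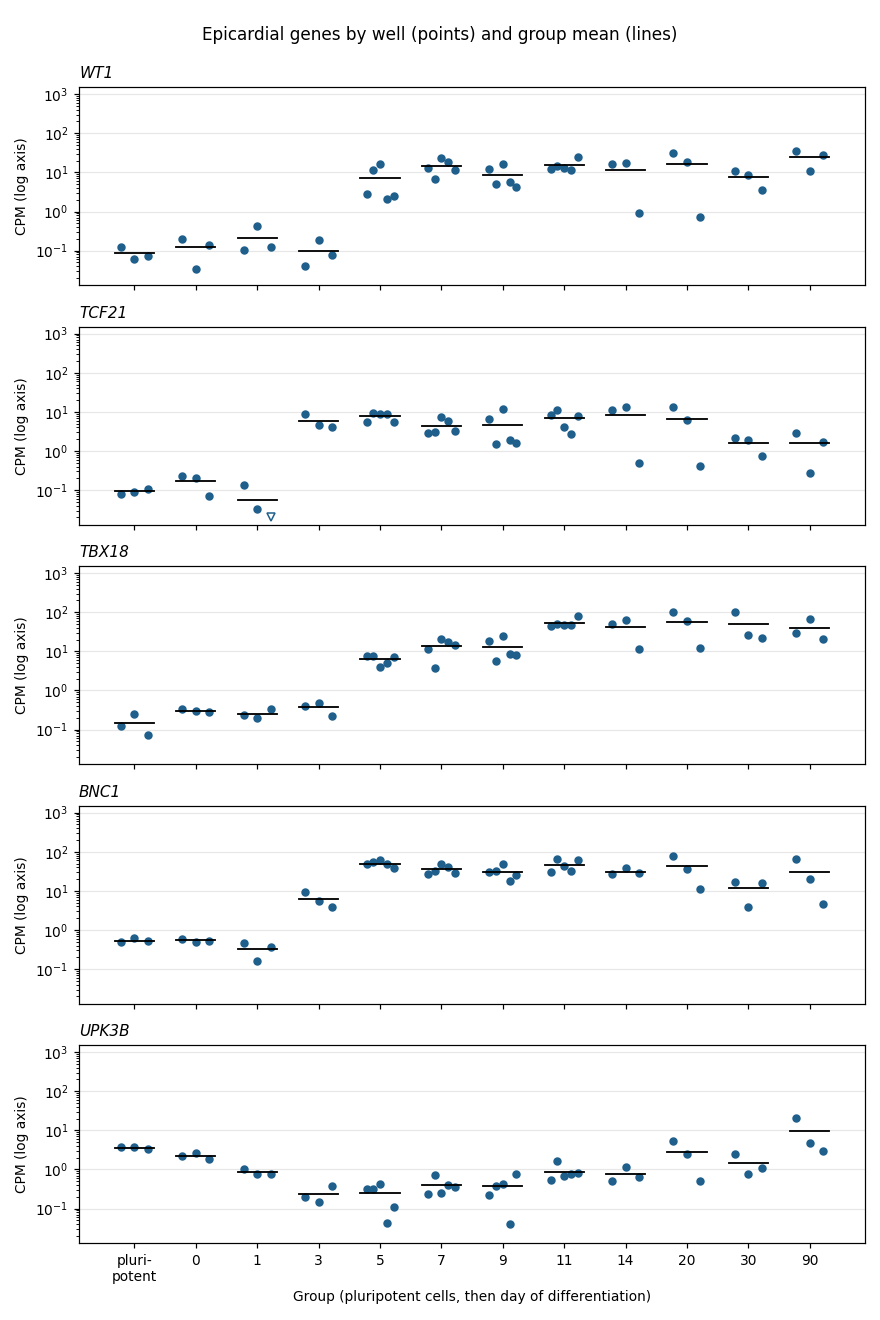
CPM on a log axis of WT1, TCF21, TBX18, BNC1 and UPK3B in each well (points) with the group mean (line), for the pluripotent group and days 0 to 90. An open triangle at the foot marks a well with 0 counts. WT1 and TBX18 step up at day 5 and TCF21 and BNC1 at day 3, while UPK3B is lowest at days 3 to 9.

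LUM (chr12:91102629-91111831, minus strand) rose at day 5. Pluripotent wells 1, 2 and 3 gave 0.603, 0.429 and 0.620 CPM and day 3 wells 2.98, 1.34 and 1.06 CPM. In day 5 wells 1 to 5 it was 41.4, 82.0, 273, 74.8 and 41.5 CPM. The step from day 3 to day 5 was a log2 fold change of 5.84 ± 1.06 (SE, adjusted p = 1.00e-04), with wells apart.

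LUM then varied widely between the wells of a day. At day 11 wells 1 and 2 gave 414 and 861 CPM while wells 5, 6 and 7 gave 46.4, 40.0 and 63.2 CPM. At day 14 wells 2, 3 and 6 gave 405, 395 and 71.2 CPM, and at day 90 wells 2, 4 and 5 gave 312, 60.05 and 209.9 CPM. No comparison after day 9 was called for LUM, and its group means from day 5 on lay between 102 and 291 CPM. Per transcript length LUM had the highest mean TPM of the 10 genes in every group from day 5 to day 30, at 40.8 at day 5 and 147 at day 14, while at day 90 DCN (68.0) and MGP (53.4) had higher mean TPM than LUM (40.5).

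DCN (chr12:91140484-91183123, minus strand) is the neighbour of LUM, with its nearest end 28652 bases away, but rose later. It was 0.348, 0.918, 3.13, 0.652 and 0.372 CPM in day 5 wells 1 to 5, within or near the 0.0804 to 1.49 CPM of all earlier wells but for well 3. At day 9 wells 1, 2, 3, 4 and 10 gave 8.95, 35.7, 3.11, 7.81 and 8.60 CPM. No single step between sampled days was called for DCN, while day 9 against day 3 was, at 4.45 ± 1.18 on the log2 scale (SE, adjusted p = 0.00298).

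At day 90 DCN reached 551, 58.3 and 291 CPM in wells 2, 4 and 5, and the lowest of these was above all 3 wells of day 30 (34.8, 47.6 and 24.4 CPM in wells 1, 3 and 10). The log2 difference between days 90 and 30 was 3.07 ± 1.03 and missed the threshold (SE, adjusted p = 0.0547). Against day 9 it was 4.54 ± 0.89 (adjusted p = 8.24e-05). LUM over the same interval differed by 0.38 ± 0.76 (adjusted p = 0.736), and the difference between the 2 genes was not tested.

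POSTN (chr13:37562583-37598844, minus strand) was present before differentiation, at 1.29, 1.29 and 1.53 CPM in pluripotent wells 1, 2 and 3, and at 2.35, 2.16 and 2.31 CPM at day 0. At day 3 the wells gave 0.596, 0.372 and 0.302 CPM. These wells lay below those of day 0, but the difference was not called (-2.42 ± 1.33, adjusted p = 0.193). At day 9 wells 1, 2, 3, 4 and 10 gave 12.5, 65.4, 7.47, 10.5 and 11.1 CPM, a log2 fold change of 5.65 ± 1.29 over day 3 (SE, adjusted p = 0.000637).

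The call of POSTN at day 9 against day 0 (3.23 ± 1.05, adjusted p = 0.0108) was lost without well 2 of day 9, at 2.19 and an adjusted p of 0.0656. At day 30 wells 1, 3 and 10 gave 53.1, 134 and 98.4 CPM and at day 90 wells 2, 4 and 5 gave 265, 71.5 and 178 CPM. Every day 90 well lay above every day 9 well, with a log2 fold change of 3.00 ± 0.87 (SE, adjusted p = 0.00553). No single step was called for POSTN.

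DDR2 (chr1:162631373-162787400, plus strand), the collagen receptor, was detected in every library, with 1.06 CPM as its lowest value. It was 1.19, 1.12 and 1.13 CPM in day 3 wells 1, 2 and 3 and 4.14, 5.39, 18.7, 4.48 and 4.57 CPM in day 5 wells 1 to 5, a log2 fold change of 2.69 ± 0.84 (SE, adjusted p = 0.0208). At day 14 wells 2, 3 and 6 gave 48.1, 48.0 and 3.31 CPM. At day 90 wells 2, 4 and 5 gave 98.8, 12.04 and 47.7 CPM, which overlapped the 8.47 to 39.0 CPM of day 9 (1.62 ± 0.67, adjusted p = 0.0537).

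The early wells of DDR2 and LUM also parted at day 1. Wells 1 and 3 gave 4.92 and 6.35 CPM of DDR2 and 7.41 and 10.6 CPM of LUM, and well 2 gave 1.06 and 1.09 CPM. The same wells had summed smooth muscle marker levels of 255, 282 and 92.7 CPM in wells 1, 3 and 2. Well 2 differed in other marker lists as well. Cartilage markers summed to 74.7, 86.6 and 17.4 CPM in wells 1, 3 and 2. Skeletal muscle, neural and pericyte marker sums were also lowest in well 2. Other sums, among them those of pluripotency and endothelial markers, were highest there. The part of any of these cells in the DDR2 and LUM levels was not tested.

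MGP (chr12:14881181-14885926, minus strand) was the last of the 10 genes to rise. Through day 9 no well was above 0.335 CPM, and 10 of the 27 MGP values up to then were 0 counts. At day 20 wells 1, 2 and 3 gave 3.53, 1.505 and 0.146 CPM. At day 30 wells 1, 3 and 10 gave 39.1, 38.9 and 7.58 CPM, a log2 fold change of 4.03 ± 0.82 over day 20 (SE, adjusted p = 0.00326). At day 90 wells 2, 4 and 5 gave 214, 16.3 and 103 CPM.

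All 6 MGP wells of days 30 and 90 lay above all earlier wells. The log2 fold change of day 90 over day 9 was 9.75 ± 0.87 (SE, adjusted p = 1.96e-11), against a few counts per well at day 9. Early counts of MGP differed by sequencing lane: the 7 libraries of days up to 9 in lane 1 had 0 counts, and the 5 in lane 5 had 2 to 9 counts, where the later libraries of lane 5 summed to 6608 counts of MGP and those of lane 1 to 97. Whether reads passed between libraries of a lane was not tested. C12orf60, which overlaps MGP on the opposite strand, stayed between 0.728 and 2.57 CPM in all groups. MGP is also made by cartilage, whose 4 markers summed to 127 to 185 CPM at day 90 against 306 to 1102 at day 9. ACAN was at most 0.672 CPM at day 90, so nearly all of the sum at that day lay in the other cartilage markers. The 4 smooth muscle markers summed to 441 to 1405 CPM at day 9, 959 to 2637 at day 30 and 391 to 1353 at day 90. The 4 pericyte markers summed to 123 to 213, 169 to 228 and 171 to 344 CPM on the same days. The part of any of these cells in the MGP level was not tested.

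**Figure D3:**
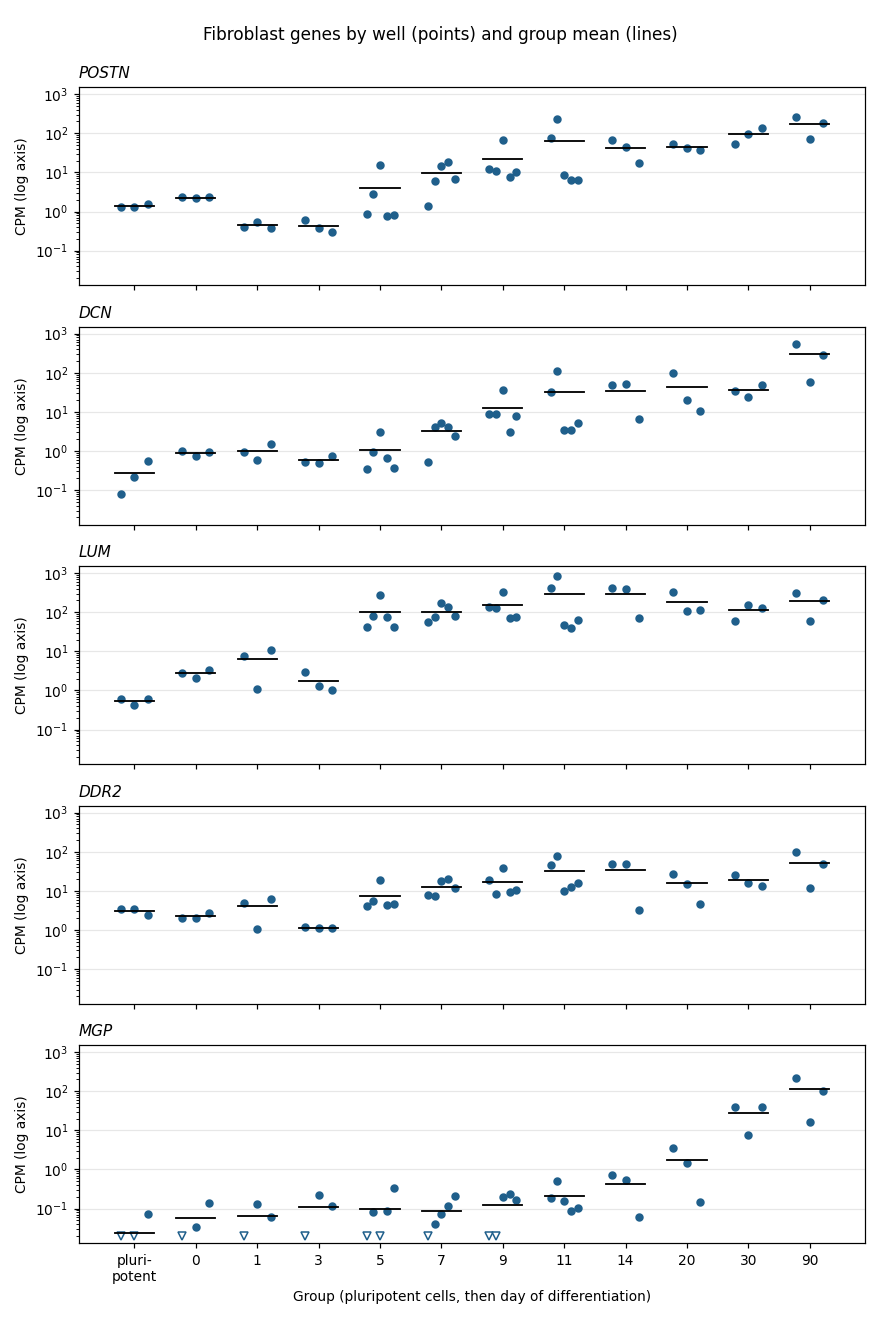
CPM on a log axis of POSTN, DCN, LUM, DDR2 and MGP in each well (points) with the group mean (line), for the pluripotent group and days 0 to 90. An open triangle at the foot marks a well with 0 counts. LUM and DDR2 step up at day 5, and the 5 wells of day 11 fall into high and low points for POSTN, DCN, LUM and DDR2. MGP stays near the foot of the axis until day 20.

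Step by step, 8 of the 10 genes were called in at least 1 of the 11 steps between neighbouring groups, beside 34.8% of all genes. In the step from day 1 to day 3, 2 of 10 were called, beside 17.8% of all genes. In the step from day 3 to day 5, 5 of 10 were called (WT1, TBX18, BNC1, LUM and DDR2), all higher, beside 10.1% of all genes and 5.75% called as higher. MGP was the 1 gene called at day 30 against day 20, beside 2.02% of all genes, and UPK3B the 1 gene called in the last step. None of the 10 was called at day 0 against the pluripotent group, where 2.91% of all genes were, or at day 1 against day 0 (13.5%). The same held for day 7 against day 5 (3.65% of all genes), day 9 against day 7 (1.28%), day 14 against day 11 (0.697%) and day 20 against day 14 (0.0479%). The last 2 shares rest on 160 and 11 genes and moved with single wells: leaving out 1 well gave 2 genes (well 7 of day 11) to 1298 (well 3 of day 14) for the first, and 3 (well 2 of day 14) to 218 (well 3 of day 20) for the second.

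Ordered by group mean, few neighbouring groups were apart in their wells. Of the 11 neighbouring pairs in each order, 0 (UPK3B) to 2 (TCF21, TBX18, BNC1, POSTN and LUM) were apart, and 1 for the other 4 genes. For WT1 that pair was day 5 and day 1, and no neighbours among the 8 groups from day 5 on were apart, although groups further from each other in the order could be, as all WT1 wells of day 11 (11.4 to 25.5 CPM) lay above those of day 30 (3.47 to 10.8 CPM). For MGP the pair was day 30 and day 20. For TBX18 one of the pairs was day 90 (mean of 39.5 CPM) and day 7 (13.5 CPM), but the low wells of day 14 (11.6 CPM) and day 20 (12.1 CPM) lay within the range of day 7.

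At day 11 the wells parted in the same way for 4 of the 5 fibroblast genes (POSTN, DCN, LUM and DDR2) and not for most epicardial genes. Wells 1 and 2 were taken as the wells highest in LUM, so the place of LUM there was fixed by that choice. There POSTN was 74.0 and 228 CPM in wells 1 and 2 and 8.58, 6.50 and 6.32 CPM in wells 5, 6 and 7. DCN was 32.4 and 113 CPM in wells 1 and 2 and 3.43, 3.52 and 5.25 CPM in the other 3. DDR2 was 45.7 and 76.8 CPM against 10.1, 12.7 and 16.3 CPM. MGP was near its floor there, with 4, 11, 4, 2 and 3 counts in wells 1, 2, 5, 6 and 7. Wells 1 and 2 were the highest 2 of the 5 for 1 of the 5 epicardial genes, TCF21 (8.20 and 11.4 CPM beside 4.07, 2.76 and 7.73). WT1 and TBX18 were highest in well 7. Of the 12 other fibroblast genes described further on, 5 were highest in wells 1 and 2 and 2 were lowest there.

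Those wells also differed in the markers of other cell types. The summed CPM of 6 endoderm and liver markers was 5232 and 9545 in wells 1 and 2 of day 11 and 324, 333 and 268 in wells 5, 6 and 7. Wells 1 and 2 were the highest 2 for 5 of these 6 markers, the exception being FOXA2 (5.56 to 12.8 CPM over the 5 wells). The summed CPM of 6 cardiomyocyte markers was 7860 and 5163 in wells 1 and 2 and 20160.5, 20052 and 19086 in the others, and wells 1 and 2 were the lowest 2 for all 6. No endoderm or liver marker was at 0 in any day 11 well. Integrity scores were 8.6 and 8 in wells 1 and 2 and 9.2 to 9.5 in the others, with totals of 18014203 and 19060126 counts against 23631168 to 31323325. The part of other cells, RNA quality or depth in the fibroblast gene levels was not tested.

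Single wells of days 5 and 9 were also high in both fibroblast genes and endoderm and liver markers, but differed from the day 11 wells in other lists. Each was taken as the well of its day highest in LUM, so the place of LUM among the fibroblast genes counted was fixed by that choice. Well 3 of day 5 was highest for 4 of 5 fibroblast and 3 of 5 epicardial genes and had a summed endoderm and liver level of 778 CPM beside 226 to 432 CPM in the other 4 wells. It was lowest for 2 of 6 cardiomyocyte markers, and of the 12 other fibroblast genes 5 were highest and 5 lowest in it. Well 2 of day 9 was highest for 4 of 5 fibroblast and 4 of 5 epicardial genes, and its endoderm and liver sum was 6768 CPM beside 673 to 2214 CPM. It was lowest for 5 of 6 cardiomyocyte markers and highest for 10 of the 12 other fibroblast genes. Wells 2 and 3 of days 7 and 14 and well 3 of day 30 also had the highest sums of their day for both lists. At day 20 well 3 had the highest endoderm and liver sum, at 5223 CPM beside 2085 and 1144 CPM in wells 1 and 2. Its fibroblast gene sum was the lowest, at 165 CPM beside 519 and 188 CPM. At day 90 the endoderm and liver markers were low where the fibroblast genes were high, at 9.32 and 9.41 CPM in wells 2 and 5 and 213 CPM in well 4. Day 90 wells 2, 4 and 5 had summed fibroblast gene levels of 1441, 218 and 829.02 CPM and cardiomyocyte marker sums of 13159, 19409 and 14391 CPM. Well 2 was highest for 9 of the 10 genes, all but TBX18.

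**Figure D4:**
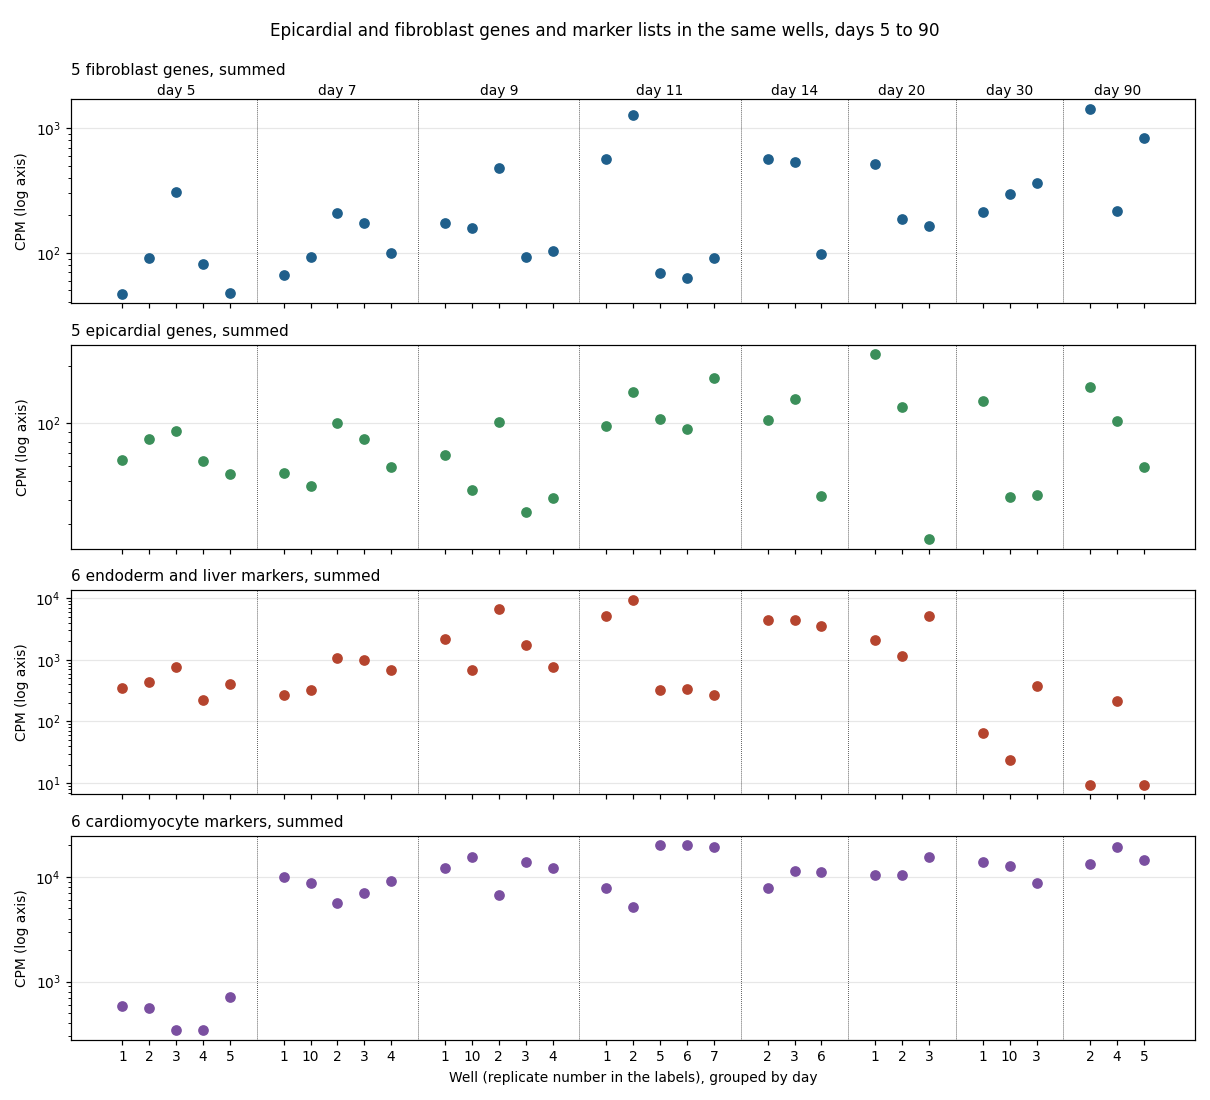
Summed CPM on log axes, for each well of days 5 to 90, of the 5 fibroblast genes, the 5 epicardial genes, 6 endoderm and liver markers and 6 cardiomyocyte markers. At day 11 wells 1 and 2 are high in fibroblast genes and in endoderm and liver markers and low in cardiomyocyte markers. At day 90 wells 2 and 5 are high in fibroblast genes and lowest in endoderm and liver markers.

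Other genes of the same cell types were read from lists beside the 10. Of 12 other epicardial genes, 7 were higher and 1 lower at day 9 against day 0, with a median log2 difference of 1.86 beside 0.08 for all genes. Of all genes, 17.1% were called as higher and 14.6% as lower there. TBX20, a T-box factor of the heart, rose by 7.80 ± 0.44 and LRRN4, a mesothelial surface protein, by 6.08 ± 0.48, while BNC2, the paralogue of BNC1, fell by 2.504 on the log2 scale, from 70.4 ± 4.72 CPM (SD, n = 3) to 12.4 ± 8.36 CPM (SD, n = 5). At day 90 against day 9, 5 of 12 were higher and 2 lower, beside 11.9% and 12% of all genes. ITLN1 and UPK1B, both expressed by mesothelium, rose by 6.90 ± 1.00 and 5.16 ± 0.52, and ALDH1A2, a retinoic acid synthesising enzyme, by 4.44 ± 0.73. The ITLN1 mean at day 90 was 41.4 ± 69.8 CPM (SD, n = 3), and ALDH1A1 fell by 2.38 on the log2 scale.

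Of 12 other fibroblast genes, 9 were higher and 1 lower at day 9 against day 0 (median 1.89), beside 17.1% and 14.6% of all genes. At day 90 against day 9, 4 were higher and 3 lower (median 0.08 beside -0.02 for all genes), beside 11.9% and 12% of all genes. The collagen gene COL3A1 rose by 6.03 ± 0.76 and the receptor gene PDGFRA by 5.04 ± 0.51 at day 9. The mean of PDGFRA had been higher at day 3, at 617 CPM, than at day 9, at 262 CPM. Against day 9 it was called as lower at day 20 (116 CPM) and at day 30 (85.3 CPM). At day 90 against day 9 FAP, a fibroblast activation protease, rose by 8.16 ± 0.81 from a mean of 0.0355 CPM, and THY1 and PRRX1 by 2.22 ± 0.62 and 1.91 ± 0.73, while fibronectin (FN1) fell by 4.15, from 10961 ± 4355 CPM (SD, n = 5) to 619 ± 46.7 CPM (SD, n = 3). FN1 thus moved opposite to POSTN, DCN and MGP.

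Of 8 other small leucine-rich proteoglycans, the family of DCN and LUM, 6 were tested and KERA and EPYC were not. At day 90 against day 9, 2 of the 6 were called, a share not far from the 23.9% of all genes. OGN rose by 9.18 ± 0.82 and ASPN by 8.97 ± 0.75, from 0.0964 and 0.0962 CPM to 61.6 and 50.8 CPM. The day 9 means of OGN, ASPN and FAP were below what 3 counts give in any day 9 well (0.0976 to 0.128 CPM), so the sizes of these 3 fold changes rest on a few counts and depend on the fit. FMOD was the proteoglycan with the largest rise by day 3, at 4.82 ± 0.75 over day 0, when DCN and LUM were not called. Of 7 transition factors and cadherins, 6 were higher at day 3 against day 0, led by SNAI2 at 6.03 ± 0.68, beside 7.81% of all genes called as higher. At day 9 against day 3, 0 were higher and 2 lower (SNAI2 and SNAI1), beside 12.3% and 8.88% of all genes. WT1, TBX18 and the fibroblast genes were not called at day 3 against day 0, and 6 of these 7 were higher at day 9 against day 3.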

How the data were processed

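The authors deposited estimated counts per gene and TPM, values per transcript length scaled to the same sum in every library, for 44 libraries made with a stranded total RNA kit and sequenced as 150 bp paired reads, per the labels' protocols. The submitters' processing notes name cutadapt, STAR 2.5.2b, RSEM 1.2.31 and hg38 without their roles; the annotation and the use of strand are not given in the sources used here. A deposited table gives each library's lane and an RNA integrity score.

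Estimated counts were rounded and filtered with filterByExpr of edgeR 4.0.16 (R 4.3.3), scaled by TMM and fitted with 1 mean per group over all 44 libraries by edgeR's quasi-likelihood model. All groups share 1 estimate of the spread of a gene. A call needs a Benjamini-Hochberg adjusted p under 0.05 over 22955 genes and a log2 fold change of at least 1. SE is the log2 fold change over the square root of F. Symbols and coordinates are from GENCODE release 29 (GRCh38), which held 56769 of 60499 identifiers.

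On simulated counts for day 9 against day 0 over the 22955 genes, the fit called 89 of 100 genes changed 4-fold, 98 of 100 changed 8-fold and 3 unchanged genes, and 0 when nothing was changed. The changed genes were drawn only from genes above a minimum mean level. All other genes kept the same mean in every group, and wells were drawn independently. These rates do not carry over to genes near the floor or to wells that share a run. Totals of 6937136 to 33498022 counts set the precision, without molecular identifiers, so that floors cover counting error only.

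The 10 genes, the lists beside them and the markers were chosen with earlier results of these data known. All 10 genes are named. From each list the text names up to 4 called genes with the largest change per comparison; OSR1, PAX2, PAX8, ACAN and FOXA2 were named after their values were seen. The alternatives, which include DESeq2 1.42.0, limma 3.58.1 on log2(TPM + 1) and log2(TPM + 0.1), other scalings and filters, and leaving out wells, are described in the closing section.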

Additional observations from a re-analysis of the deposited data

Results flagged for a closer look

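Of 40 sets of 5 wells (a gene at day 5, 7, 9 or 11), 13 held 1 well that stood far from the other 4, by a gap of more than 0.710 of the whole range of the 5 wells. For normally distributed values chance flags about 1 in 20 such sets, but CPM, above all at few counts, need not follow that distribution. The share that chance would flag here is therefore not known. The sets are also not independent, since genes share wells. Well 3 of day 5 stood high in POSTN (15.1 CPM), DCN (3.13 CPM), LUM (273 CPM) and DDR2 (18.7 CPM), and well 5 of day 5 in MGP (0.335 CPM, few counts). Well 2 of day 9 stood high in POSTN (65.4 CPM), DCN (35.7 CPM) and LUM (338 CPM). At day 11 well 2 stood high in DCN (113 CPM), UPK3B (1.66 CPM) and MGP (0.507 CPM), and well 7 in WT1 (25.5 CPM) and TBX18 (79.3 CPM). Of the 13, 8 were values of POSTN, DCN, LUM or DDR2 in a well that also had the highest summed endoderm and liver markers of its day, and that relation was not tested.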

How the results depend on the processing

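None of the 32 calls of the 10 genes in the 7 comparisons changed direction under any alternative run. All 32 were kept under RLE scaling, no filter, a stricter filter (CPM of at least 1 in 3 libraries), the replicate block and DESeq2; 31 were kept with lane as a covariate and 31 without the 3 libraries under 12000000 counts, an alternative chosen after seeing the data (BNC1 at day 30 against day 9 was lost in both); 30 of 31 were kept with only the compared groups fitted. On log2(TPM + 0.1) limma kept 26 and on log2(TPM + 1) it kept 15, and a pseudocount of 1 TPM compresses low genes by construction. The number of the 10 genes called on log2(TPM + 1) was 0 at day 3 against day 0, where the report gives 3. At day 9 it was 4 against day 3 (7 in the report) and 4 against day 0 (9 in the report), and at day 20 against day 9 it was 1 (3 in the report). It was 0 at day 90 against day 30 (1 in the report) and 3 over the 11 steps (8 in the report). In the comparison of days 90 and 30 it was 2 without a filter, with the stricter filter, with the replicate block and with DESeq2, and 0 with only the compared groups fitted and on log2(TPM + 0.1); the cause was not tested. Leaving out 1 well gave 3 to 3, 7 to 7, 8 to 9, 0 to 4, 2 to 5, 0 to 3 and 5 to 7 calls in the 7 comparisons in the order of the plot of fold changes, and 7 to 10 over the steps. The TPM scale moves the median of all genes by -0.72 (day 90 against day 30) to 0.34 (day 20 against day 9) with a pseudocount of 0.1, and the share of higher calls among all genes at day 9 against day 3 was 19.7% there and 58.2% in the count fit. Counts over all genes also moved: day 90 against day 30 called 1168 genes in the main setting, 730 with lane as a covariate, 2030 without the 3 shallow libraries, 2 with only the compared groups fitted and 3617 on log2(TPM + 0.1). Day 20 against day 9 called 3329, and 2141, 1105 and 2133 with only the compared groups and on the 2 TPM scales (pseudocount 1, then 0.1). Day 30 against day 9 called 4347, and 1560 and 2884 on those scales. On log2(TPM + 1) days 3 against 0, 9 against 0 and 90 against 9 called 1767, 3788 and 2819 where the main setting called 3803, 7278 and 5485. Leaving out 1 well gave 2112 to 4941 genes at day 20 against day 9 and 709 to 1794 at day 90 against day 30. Day 14 against day 11 called 160 genes, and 0 with the replicate block or with only the compared groups fitted, 12 with lane as a covariate, 417 with DESeq2 and 2 to 1298 with 1 well left out. Day 20 against day 14 called 11, and 68 with the replicate block, 42 with DESeq2, 0 without the 3 shallow libraries and 3 to 218 with 1 well left out. With only the compared groups fitted, day 0 against the pluripotent group called 1592 (669 in the main setting), day 9 against day 7 called 497 (293) and day 30 against day 20 called 0 (463, and 711 with DESeq2). On log2(TPM + 1) the steps up to day 11 called fewer genes, from 49 where the main setting called 669 at day 0 to 1750 (4093) at day 3 against day 1, with 13 (375) at day 11 against day 9. Same-numbered wells deviated together with correlations of -0.272 to 0.166 in 6 of these comparisons, and in none were all of 3 or more pairs over 0.1, so the numbers were not taken as pairs. Days 90 and 30 share no number. In the steps the correlations were higher for some pairs, at 0.608 and 0.558 for days 20 and 14, 0.356 and 0.0558 for days 14 and 11, 0.333 and -0.119 for days 11 and 9, and 0.0452 to 0.388 for days 9 and 7, where 4 of 5 pairs were over 0.1. Not all pairs of days 9 and 7 were over 0.1. The other steps named share fewer than 3 numbers, so the rule of 3 or more pairs could not be met there. Whether same-numbered wells of those steps belong together was not settled. Depth limits MGP up to day 14, WT1 and TBX18 up to day 3 and TCF21 up to day 1, so fold changes against those days rest on a few counts. UPK3B had 1 to 24 counts per well from day 3 to day 9, so its fold changes against those days also rest on low counts.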

Other observations

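Beside WT1, the 5 protein-coding genes outside the 10 whose log2(CPM + 1) followed it most closely over the 44 libraries were COL3A1 (Pearson's r = 0.906), IGF2 (0.889), COL6A3 (0.886), FBXO32 (0.865) and EDNRA (0.862), out of 7639 genes considered. Among the 10 genes, TBX18 (0.870), DDR2 (0.864) and LUM (0.856) were as close to WT1, and UPK3B was not (0.0918). For DCN the 5 genes were GNG12 (0.933), AQP1 (0.908), NPNT (0.904), C7 (0.900) and PRSS35 (0.900), and POSTN was closer than all of them (0.949). Over the 12 group means POSTN and DCN gave 0.968. These values describe 44 libraries that share wells, days and depth, and carry no test.

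At day 30 against day 9 the proteoglycan genes ASPN and OGN were already higher, by 6.95 ± 0.72 and 4.17 ± 0.80 on the log2 scale (SE), at 12.6 and 1.92 CPM, against day 9 means below 3 counts per well, while FMOD fell by 1.61. FAP was higher by 5.82 ± 0.80, with the same limit, ZEB1 by 1.51 ± 0.26 and UPK1B by 3.88 ± 0.50. GPM6A, a mesothelial membrane protein, fell by 2.25 at day 30 and rose by 2.24 ± 0.58 from day 30 to day 90. MSLN, the mesothelial gene mesothelin, rose by 2.88 ± 0.59 in that last interval, from 0.711 to 5.12 CPM.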
